A study of Mus musculus with 6 samples.

Results

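Genes for heat shock proteins, their DnaJ co-chaperones, the CCT chaperonin and the BAG proteins were followed in W-EGFP cells. The labels place these cells in the interstitium of the mouse fetal testis. Members were the gene rows whose symbol is Hspa or Hspb with a number, Hsp90 with any ending, Hspd1, Hspe1 or Hsph1, Dnaja, Dnajb or Dnajc with a number, Cct with a number, or Bag1 to Bag6. The rule left out Hspa5 and Dnajb9, which the unfolded protein response of the endoplasmic reticulum controls. It found 85 members among 24413 gene rows. They fell into 13 Hsp70 and Hsp110 genes, 3 Hsp90 genes, 8 small heat shock protein genes, the Hsp60 and Hsp10 pair, 16 genes of the DnaJ A and B subfamilies, 28 DnaJ C genes, 9 CCT chaperonin genes and 6 BAG genes.

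All 6 samples came from testes of FLE-EGFP reporter mice at E16.5, and no other allele is named in the labels. The EGFP of this line is under the control of an Nr5a1 enhancer active in fetal Leydig cells. In each sample 10000 cells were exposed for 1 hour either to 0.5 µM SAG, an agonist of the Hedgehog signal transducer Smoothened, or to its vehicle DMSO, with 3 libraries per group. The data columns of both groups carry the element "siCnt", which the labels do not explain, so any treatment shared by both groups before the agonist is not known. Which litters, animals or cultures the libraries came from is not stated, so the spread behind each p-value is that between libraries and may be technical.

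Hsp70 proteins hold and release unfolded stretches of other proteins in a cycle driven by ATP. DnaJ proteins bring them their clients and start ATP hydrolysis, and Hsp110 and many BAG proteins let them exchange ADP for ATP. Hsp90 takes over partly folded signalling proteins, small heat shock proteins hold unfolded proteins without ATP, the CCT ring folds actin and tubulin in the cytosol, and Hsp60 with its lid Hsp10 folds proteins in the mitochondrial matrix. Under protein damage the transcription factor HSF1 binds heat shock elements, which are inverted repeats of GAA, and raises a subset of these genes.

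Values are the authors' deposited signal, which is CPM with a scaling factor for each library, and the ± gives the SD of 3 libraries (n = 3). Depth was 18486396 to 25491259 reads with DMSO and 7694479 to 8804335 reads with SAG, a ratio of 2.67 between group means. The direct Hedgehog target Gli1 had a signal of 0.324 to 0.846 with DMSO and 30.8 to 46.3 with SAG, which checks the treatment labels. SAG replicate 3 stood apart from the other libraries. Ribosomal RNA from Rn45s took 1.67% of its reads, against 0.326% to 0.36% elsewhere, it held 1205 reads of synthetic spike-in RNA, against 0 to 111, and the second principal component of all genes (20.8% of the variance) separated it from SAG replicates 1 and 2. Results that change without it are given both ways.

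With SAG, 6 of the 74 tested members were higher and 15 were lower, and 53 did not pass the test (limma on log2(signal + 1), Benjamini-Hochberg adjusted p under 0.05 over the 12550 genes whose mean signal was 1 or more). Of all tested genes 29.6% were called, 12.9% higher and 16.6% lower, against 8.11% and 20.3% of the tested members, so the share of members called (28.4%) was close to the background. The signal ranges of the groups did not overlap for 34 tested members (45.9%), beside 48.0% of all tested genes. The median log2 fold change (SAG minus DMSO) was -0.20 over the members and -0.03 over all tested genes, and 54 of 74 members (73.0%) had a negative value, beside 52.9% of all genes. Changes were small: only Hspb2 passed the test with a log2 fold change of 1 or more in size.

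Both counts moved with single libraries. Without SAG replicate 3, 7 members were higher (9.46%) and 36 were lower (48.6%), and the 36 held all 15 that were lower with the full set. The background also rose, to 46.6% of genes called, 19.7% higher and 27.0% lower. Without DMSO replicate 1, 2 or 3 the lower members numbered 6, 5 and 7 of 74, beside 8.71%, 9.04% and 8.65% of all genes. The median of the members was -0.22 without SAG replicate 3.

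**Figure D1:**
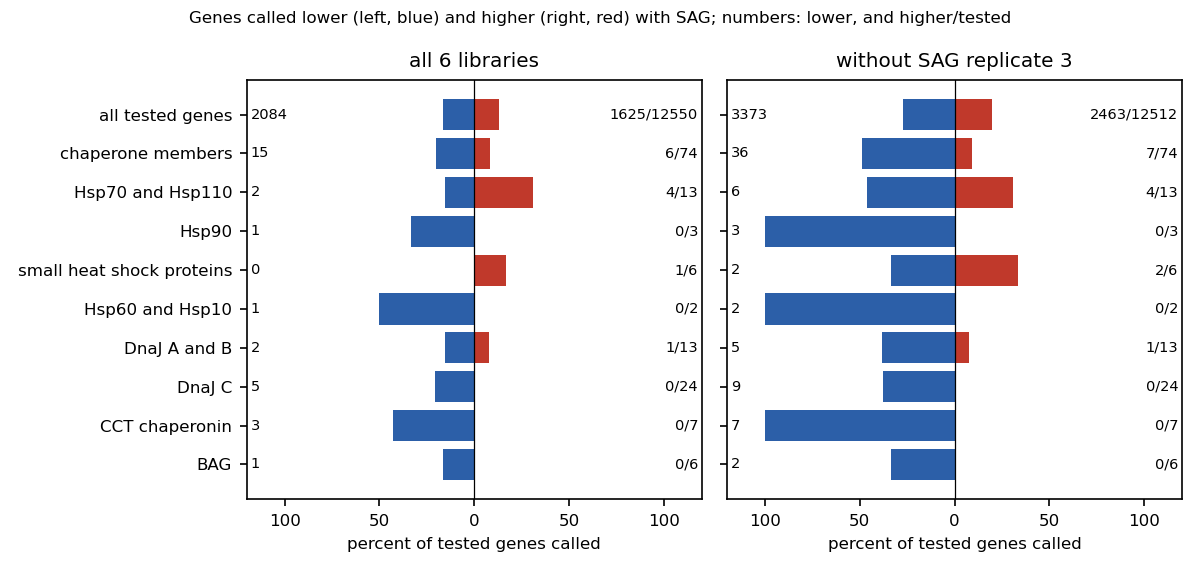
Percent of tested genes called lower (blue, left of 0) or higher (red, right of 0) with SAG for all tested genes, all tested members and each class, with all 6 libraries (left panel) and without SAG replicate 3 (right panel); the numbers give genes lower at the left edge, and genes higher over genes tested at the right edge. With all libraries 4 of the 6 higher members are Hsp70 genes, and without SAG replicate 3 all 7 tested CCT genes are lower, while no CCT gene is called when libraries are scaled by their totals.

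The stress-inducible Hsp70 genes Hspa1a and Hspa1b were higher with SAG. Hspa1a had signals of 9.86, 9.61 and 9.36 with DMSO and 16.6, 14.9 and 20.04 with SAG. Hspa1b had 18.2, 19.3 and 17.4 with DMSO and 33.1, 34.6 and 30.7 with SAG. For both genes each SAG library was above each DMSO library, with no overlap. The log2 fold change was 0.77 (SE 0.15, limma adjusted p = 0.005) for Hspa1a and 0.81 (SE 0.12, limma adjusted p = 0.00126) for Hspa1b, which are 1.79-fold each. The genes are close copies. Of the 50-base words of Hspa1b, 62.3% occur in Hspa1a. Of those of Hspa1a, 66.3% occur in other annotated genes, chiefly Hspa1b. Reads may thus be split between Hspa1a and Hspa1b. Their sum does not depend on that split, and it went from 27.9 ± 1.11 to 49.99 ± 0.648. How reads that match both genes were counted is not stated, so the sum may lack some of them. Hspa1a and Hspa1b lie next to each other on chromosome 17 of GRCm38, at 34969190 to 34972156 and 34956436 to 34959238, both on the minus strand. Hspa1a also overlaps the predicted gene Gm20481 on the opposite strand over 564 bases of its exons.

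The promoter of Hspa1b is shown because the gene moved together with Hspa1a. Over the 250 bases before the RefSeq start (GRCm38.p6) the promoters of the pair have 247 identical bases, and each holds 1 pair of heat shock units, in capitals. A pair was searched as the letters GAANNTTC or TTCNNGAA, each of which reads the same on both strands.
Hspa1b, chr17:34959239-34959488, minus strand: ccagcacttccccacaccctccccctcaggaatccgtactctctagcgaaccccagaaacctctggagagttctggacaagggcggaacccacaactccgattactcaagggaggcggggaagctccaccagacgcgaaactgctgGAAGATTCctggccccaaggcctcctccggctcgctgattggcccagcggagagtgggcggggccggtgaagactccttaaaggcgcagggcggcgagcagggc

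Of the 12 members on a list of heat-inducible cytosolic chaperones, 9 had a promoter in the RefSeq table and 6 of these (66.7%) held a pair. Without Hspa1a and Hspa1b, which are near copies, it was 4 of 7 (57.1%), and Hspb8, Dnajb1 and Bag3 held none. A gene with several starts was counted once, as holding a pair if any of its starts did. Over all genes with a promoter in the table the share was 14.5%, and over all single windows 12.8%. Among all 69 members with a promoter it was 17 (24.6%). The 30 bases around the pair are printed for the inducible members that hold it, to set Hspa1a beside genes with the same letters that did not pass the test in SAG.
Hspa1a, chr17:34972242-34972271, minus strand: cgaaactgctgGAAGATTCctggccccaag
Hspb1, chr5:135887801-135887830, plus strand: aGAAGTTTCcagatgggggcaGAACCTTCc
Hsph1, chr5:149636351-149636380, minus strand: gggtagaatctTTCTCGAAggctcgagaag
Dnaja1, chr4:40722333-40722362, plus strand: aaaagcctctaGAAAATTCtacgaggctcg
Dnajb4, chr3:152193846-152193875, minus strand: gttcgttcgttcgctgTTCTAGAAagtaca

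Hspb1, Hsph1, Dnaja1 and Dnajb4 did not pass the test with all libraries, and their log2 fold changes were negative. Dnaja1 and Dnajb4 also have RefSeq starts whose windows hold 0 pairs. A pair stood in 2 of the 5 higher members with a promoter in the table, in 2 of the 11 lower ones and in 11 of the 44 that were not called. A match of letters is a description and not a binding site.

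Most of the heat-inducible list did not pass the test. Of its 12 genes 2 were higher (16.7%), 1 (Hsp90ab1) was lower (8.33%) and 9 did not pass the test. Over all tested genes 12.9% were higher and 16.6% lower. The median log2 fold change of the list was -0.20, and it includes Hsp90ab1 and Hspa8, which are constitutive forms. Hspa8, the constitutive Hsp70 of the cytosol, had signals of 991, 1060 and 1042 with DMSO and 981, 901 and 696 with SAG (log2 fold change -0.28, limma adjusted p = 0.137). Of the 50-base words of Hspa8, 39.4% occur in transcripts of other annotated genes. Dnajb1, the J protein most closely paired with inducible Hsp70, had 63.3 to 65.8 with DMSO and 55.2 to 62.1 with SAG (log2 fold change -0.14, limma adjusted p = 0.336). For Hspb1, Hspb8, Hsph1, Hsp90aa1, Dnaja1, Dnajb4 and Bag3 the log2 fold changes ran from -0.44 (Dnajb4) to -0.14 (Hsp90aa1), with limma adjusted p from 0.0755 to 0.418. Without SAG replicate 3 the list held 2 higher and 6 lower genes.

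Hspa12a and Hspa12b encode distant relatives of Hsp70 and were both higher. Hspa12a had signals of 36.6, 35.2 and 38.1 with DMSO and 64.9, 68.7 and 48.9 with SAG, so that SAG replicate 3 was the lowest of the SAG libraries but still above each DMSO library. The log2 fold change was 0.70 (SE 0.14, limma adjusted p = 0.00548). Hspa12b, known from endothelial cells, went from 13.7 ± 0.672 to 19.9 ± 2.16 (log2 fold change 0.50, limma adjusted p = 0.021). That call was lost without DMSO replicate 1, 2 or 3 (limma adjusted p = 0.0643, 0.0801 and 0.0945) and with trends of gene length and GC removed (0.0879). Of the 8 endothelial markers, 4 were at a mean signal under 1 (Pecam1, Tek, Tie1 and Esam). The summed signal of the 8 was 122 to 126 with DMSO and 67.9 to 102 with SAG. The markers did not move as a group: of the 4 tested, 2 had positive log2 fold changes and 2 negative ones. By limma Flt1 was lower and 0 were higher. DESeq2 called 1 of the 4 higher, as did limma with libraries scaled by their totals or without SAG replicate 3. In such bulk samples fewer cells of a type and less RNA per cell cannot be told apart, and the part of these markers in the value of Hspa12b was not tested.

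**Figure D2:**
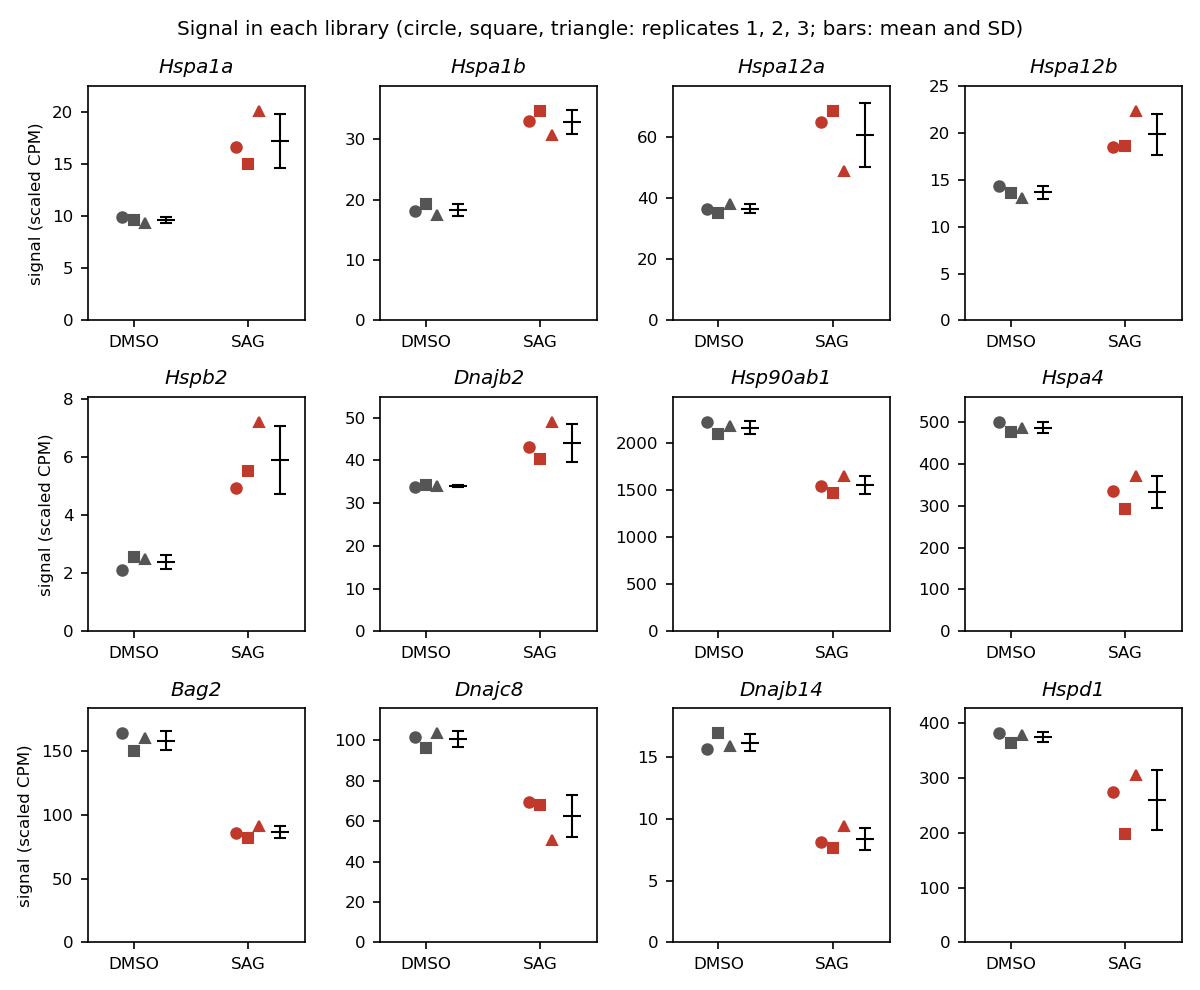
Signal (scaled CPM, linear axes from 0) of 12 members in each of the 3 DMSO (grey) and 3 SAG (red) libraries; marker shapes give the replicate, and the bar beside each group is the mean with its SD. The panels were chosen from the called members, all 6 higher and some of the 15 lower. Drawn from such genes, no panel has SAG points that overlap DMSO points, as for Bag2, with 150 to 164 against 82.0 to 91.2. Among all tested members the groups did not overlap for 45.9%, beside 48.0% of all tested genes.

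Of the 13 Hsp70 and Hsp110 genes, all tested, 4 were higher (Hspa1a, Hspa1b, Hspa12a and Hspa12b), 2 were lower (Hspa4 and Hspa4l) and 7 did not pass the test. These shares were 30.8% higher and 15.4% lower, beside 12.9% and 16.6% of all tested genes. The class had a median log2 fold change of -0.22. Hspa4 encodes the main Hsp110 of these cells by level per kilobase and acts as a nucleotide exchange factor for Hsp70. It had signals of 499, 474 and 485 with DMSO and 335, 292 and 370 with SAG, without overlap (log2 fold change -0.55, SE 0.11, limma adjusted p = 0.00482). Hspa4l, its relative at a signal per kilobase of exon of 1.42 with DMSO against 87.9 for Hspa4, went from 16.7 ± 2.10 to 10.4 ± 1.25 (limma adjusted p = 0.0132), a call lost without DMSO replicate 2 (0.0749) and, at a log2 fold change of -0.39 in place of -0.64, after trends of length and GC were removed (0.0811). The third Hsp110 gene, Hsph1, had 78.9 ± 2.49 and 68.8 ± 9.51 (limma adjusted p = 0.231), and 0.017 without SAG replicate 3.

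Among the other Hsp70 genes, Hspa9, the mitochondrial Hsp70, had 451 ± 6.42 with DMSO and 382 ± 36.4 with SAG (log2 fold change -0.25, limma adjusted p = 0.0918). Hspa9, Hspa13, an Hsp70 of the endoplasmic reticulum, and Hspa2, best known from spermatogenic cells, had lower signals in all SAG libraries than in any DMSO library but passed the test only without SAG replicate 3 (limma adjusted p = 0.00198, 0.0148 and 0.0184), or for Hspa13 also without SAG replicate 1 (0.0461) and for Hspa2 with length and GC trends removed (0.0306). Hspa14 had 39.9 ± 1.55 and 45.3 ± 7.56 (limma adjusted p = 0.403). Hspa1l was near the filter, at a mean signal of 1.34 with DMSO and 1.05 with SAG.

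Germ cell markers were near 0: the summed signal of 11 germ cell markers was 1.62 to 2.88 with DMSO and 2.01 to 3.34 with SAG, and Pou5f1, Dppa3, Mael and Nanos2 had 0 reads in all libraries.

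The BAG class holds the member with the smallest adjusted p, Bag2. It was set by symbol alone, and the exchange role of each gene was not checked. Bag2, an inhibitor of the Hsp70-associated ubiquitin ligase CHIP, had signals of 164, 150 and 160 with DMSO and 85.7, 82.0 and 91.2 with SAG. The SAG libraries lay at 51.9% to 57.7% of the DMSO mean, and the log2 fold change was -0.87 (SE 0.10, limma adjusted p = 0.000292). Bag1, which binds Hsp70 and the proteasome, had 199, 183 and 195 with DMSO and 134, 129 and 182 with SAG. Its SAG replicate 3 lay just under the lowest DMSO library, and the test was narrowly missed (log2 fold change -0.39, limma adjusted p = 0.0536) and passed without SAG replicate 3 (7.79e-07) and with length and GC trends removed (0.0096).

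Bag3, which pairs Hsp70 with small heat shock proteins in selective autophagy, had 107 ± 8.02 with DMSO and 89.0 ± 10.5 with SAG (log2 fold change -0.26, limma adjusted p = 0.121, and 0.0394 with length and GC trends removed). Bag4, Bag5 and Bag6 had log2 fold changes of -0.22, 0.13 and 0.00, with limma adjusted p from 0.493 to 0.99. Bag6, which guides tail-anchored membrane proteins, showed how SAG replicate 3 could diverge: 264 to 273 with DMSO, 283 and 309 in SAG replicates 1 and 2, and 221 in SAG replicate 3. The class had 0 higher and 1 lower of 6 (16.7%, beside 16.6% of all tested genes), with a median of -0.24. With length and GC trends removed it had 3 lower. The BAG, DnaJ C, CCT, Hsp90, and Hsp60 and Hsp10 classes are those in which limma called 0 as higher. That 0 was thus set by the choice of classes, beside 12.9% of all tested genes called higher. Over the 42 tested members of these classes together edgeR and DESeq2 also called 0 as higher. In limma 0 of the 42 were higher at an unadjusted p under 0.05. Limma without a trend called 1 of them higher, Dnajc28 (1.88 ± 0.196 with DMSO and 2.75 ± 0.277 with SAG, limma adjusted p = 0.0471), and with libraries scaled by their totals 3 (Dnajc28, Dnajc25 and Dnajc30) were higher at an unadjusted p under 0.05 and 0 by the adjusted p.

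**Figure D3:**
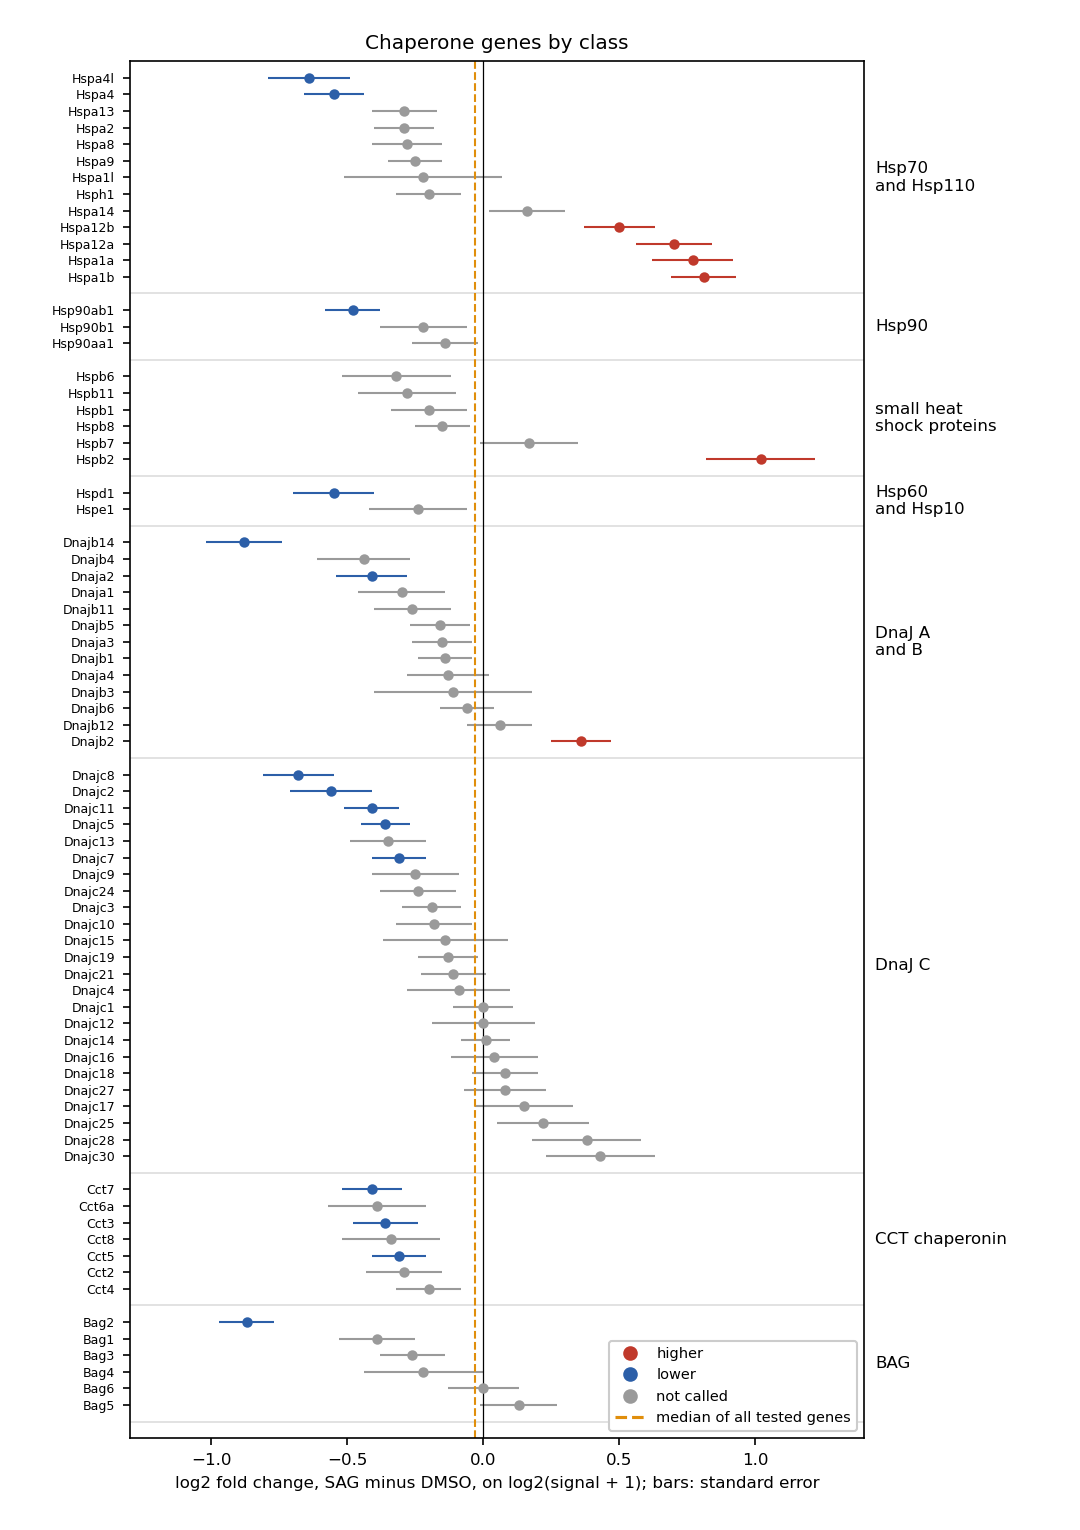
Log2 fold change (SAG minus DMSO, on log2(signal + 1)) of the 74 tested members, by class and in order of size within it; points are limma estimates, bars are their standard error, red is higher, blue is lower, grey did not pass the test, and the dashed line is the median of all tested genes (-0.03). The CCT, Hsp90 and Hsp60 with Hsp10 points all lie below 0 (Hsp90aa1 is at 0.00 with libraries scaled by their totals), whereas the Hsp70 points run from -0.64 to 0.81.

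Of the 16 DnaJ A and B genes 13 were tested, with 1 higher (7.69%) and 2 lower (15.4%), beside 12.9% and 16.6% of all tested genes. Dnajb14, a J protein in the membrane of the endoplasmic reticulum, had signals of 15.7, 16.9 and 15.9 with DMSO and 8.13, 7.63 and 9.38 with SAG. Every SAG library lay far below the DMSO range, at a log2 fold change of -0.88 (SE 0.14, limma adjusted p = 0.00206), the lowest value among the members. Dnaja2, a general J partner of cytosolic Hsp70, went from 180 ± 12.7 to 137 ± 22.3 (log2 fold change -0.41, limma adjusted p = 0.0447). The call of Dnaja2 was lost without any single library except SAG replicate 3, with limma adjusted p from 0.0557 (without SAG replicate 1) to 0.164 (without DMSO replicate 3).

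Dnajb2, a J protein with ubiquitin-interacting motifs, was higher. It had 33.9, 34.3 and 34.1 with DMSO and 43.1, 40.3 and 48.9 with SAG (log2 fold change 0.36, limma adjusted p = 0.0419). The groups did not overlap, but the call was lost without DMSO replicate 1, 2 or 3 (limma adjusted p = 0.139, 0.131 and 0.139) and without SAG replicate 1 (0.067), and removing length and GC trends gave a log2 fold change of 0.20 (0.228). Dnaja1 and Dnajb4, both cytosolic, and Dnajb11, a J protein of the endoplasmic reticulum lumen, did not pass with all libraries and were lower without SAG replicate 3 (limma adjusted p = 0.000105, 2.7e-05 and 0.000682). The class median was -0.15, and -0.02 with libraries scaled by their totals.

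DnaJ C genes, which share little beyond the J domain, had 0 higher and 5 lower of 24 tested (20.8% lower, beside 16.6% of all tested genes). Their median of -0.12 turned to 0.02 with libraries scaled by their totals and to 0.01 with length and GC trends removed. With libraries scaled by their totals 1 of the 5, Dnajc8, was lower, and Dnajc2, Dnajc11, Dnajc5 and Dnajc7 lost their calls (limma adjusted p = 0.0565, 0.0669, 0.094 and 0.238). Dnajc8, which associates with the splicing machinery, had signals of 102, 96.1 and 104 with DMSO and 69.3, 68.2 and 50.7 with SAG (log2 fold change -0.68, SE 0.13, limma adjusted p = 0.00492). Here SAG replicate 3 was the lowest library, and the groups did not overlap. Dnajc2, which works at the ribosome, went from 45.7 ± 2.29 to 31.0 ± 5.95 (limma adjusted p = 0.0186), Dnajc11 of the mitochondrial membranes from 71.9 ± 3.97 to 53.7 ± 1.60 (0.014), and Dnajc5, the cysteine string protein of secretory vesicles, from 138 ± 1.17 to 107 ± 1.62 (0.0138).

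The Dnajc5 libraries lay close together within each group, at 137, 137 and 139 with DMSO and 105, 109 and 107 with SAG. Even so, without DMSO replicate 1, 2 or 3 its limma adjusted p was 0.073, 0.0712 and 0.0798, that of Dnajc2 was 0.0673, 0.0604 and 0.087, and that of Dnajc11 was 0.0822 and 0.0792 without DMSO replicate 1 or 2. Dnajc7, which carries TPR repeats that bind Hsp70 and Hsp90, was at the edge (93.1 ± 5.13 and 75.2 ± 5.13, limma adjusted p = 0.0497) and lost its call in 13 of 18 alternatives, including without each library other than SAG replicate 3 (0.0798 to 0.207). The highest value of the class was that of Dnajc30, with 13.8 to 15.5 with DMSO and 14.2, 20.8 and 26.1 with SAG (log2 fold change 0.43, limma adjusted p = 0.136). Its groups overlapped, and it was higher without SAG replicate 1 (0.02). Another J protein, Dnajc13 of endosomes, was lower without SAG replicate 1 (limma adjusted p = 0.0172) or 3 (0.0487). The lower DnaJ C genes act in different compartments by their known roles.

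Hsp90ab1, the constitutive cytosolic Hsp90, had the highest level per kilobase of exon of all members, 721 with DMSO and 518 with SAG. Its signals were 2220, 2089 and 2177 with DMSO and 1541, 1466 and 1649 with SAG, and the groups were well apart. The log2 fold change was -0.48 (SE 0.10, limma adjusted p = 0.00586). The inducible partner Hsp90aa1, for which 47.5% of 50-base words occur elsewhere among annotated transcripts, had 382, 409 and 409 with DMSO and 384, 305 and 409 with SAG. Its groups overlapped (log2 fold change -0.14, limma adjusted p = 0.418). Hsp90b1, the Hsp90 of the endoplasmic reticulum, had 1230 to 1281 with DMSO and 1055, 850 and 1397 with SAG, where SAG replicate 3 was above all DMSO libraries. Both were lower without SAG replicate 3 (limma adjusted p = 0.0201 for Hsp90aa1 and 4.92e-05 for Hsp90b1).

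Genes for co-chaperones of Hsp70 and Hsp90 outside the module had 0 higher and 5 lower of 35, with a median of -0.06. The lower share was 14.3%, beside 16.6% of all tested genes, and 12.9% of all were higher. With libraries scaled by their totals the list had 3 higher and 2 lower and a median of 0.08. The lowest was Sec63, a J protein of the translocation channel, with 204 ± 11.5 with DMSO and 123 ± 14.9 with SAG (log2 fold change -0.73, limma adjusted p = 0.00167). Stip1, which bridges Hsp70 and Hsp90, went from 210 ± 11.2 to 133 ± 6.97 (log2 fold change -0.65, limma adjusted p = 0.0012). Both kept their calls in all 18 alternatives. Sugt1, an Hsp90 partner, was lower too (limma adjusted p = 0.0249), but not without DMSO replicate 1, 2 or 3 (0.0814, 0.0727 and 0.125) or SAG replicate 2 (0.054). The 2 lower genes outside the naming rule, named after their values were seen, were Fkbp5 (122 ± 6.07 and 96.8 ± 2.29, limma adjusted p = 0.0251) and St13 (197 ± 6.20 and 152 ± 25.5, limma adjusted p = 0.0427). With a library left out their limma adjusted p rose to 0.128 and 0.156 at most. At an unadjusted p under 0.05, 2 genes of the list were higher, and edgeR called 1 and DESeq2 2 as higher.

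Of the 8 small heat shock protein genes 6 were tested, and 1 was higher (16.7%, beside 12.9% of all tested genes). The class was set by symbol alone, also for Hspb11, and the chaperone role of each gene was not checked. Hspb2, a muscle-enriched member, had signals of 2.11, 2.54 and 2.48 with DMSO and 4.94, 5.51 and 7.19 with SAG, from 44 to 56 reads in each library. No SAG library overlapped DMSO, and the log2 fold change was 1.02 (SE 0.20, limma adjusted p = 0.00476), or 2.47-fold. Hspb2 overlaps exons of Cryab on the opposite strand over 252 bases (30.2% of its exon length). The strand setting of the counting is not given in the sources used here, so reads of the overlap cannot be assigned with certainty. Cryab itself had 204 ± 7.34 with DMSO and 184 ± 23.3 with SAG (limma adjusted p = 0.314).

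Hspb1 was the leading small heat shock protein gene by level per kilobase (181 with DMSO, 159 with SAG), and 50.1% of its 50-base words occur in other transcripts, chiefly the pseudogene Hsp25-ps1. It had 197, 181 and 181 with DMSO and 140, 151 and 201 with SAG, and SAG replicate 3 lay above the DMSO range. Hspb1 and Hspb11 were lower without SAG replicate 3 (limma adjusted p = 0.000279 and 0.0332) and Hspb7 was higher (0.00214). Hspb1 was also lower with all libraries once length and GC trends were removed (log2 fold change -0.49, limma adjusted p = 0.00273). Hspb6 and Hspb8 had log2 fold changes of -0.32 and -0.15 (limma adjusted p = 0.268 and 0.301). The class median was -0.17, and -0.03 with libraries scaled by their totals.

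Several small heat shock proteins are known from muscle, and smooth muscle genes moved with the groups. The summed signal of 10 markers of peritubular myoid and smooth muscle cells was 21798 to 22876 with DMSO and 13818 to 15263 with SAG, and 8 of the 9 tested were lower. Markers of fetal testicular interstitial cells summed to 938 to 973 with DMSO and 1534 to 1773 with SAG, with 5 of 10 higher. The part of these markers in the values of the members was not tested. Summed markers of Sertoli cells were 44.1 to 48.3 and 38.8 to 42.0, those of macrophages 2.32 to 3.33 and 1.17 to 3.62, and those of erythroid cells at most 0.508. Fetal Leydig markers summed to 32.3 to 33.3 with DMSO, 23.0 and 19.0 in SAG replicates 1 and 2, and 116 in SAG replicate 3. Of the 3 tested, 2 had positive log2 fold changes and 1 a negative one. Hsd3b1 was higher, a call lost without DMSO replicate 1, 2 or 3.

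The tested CCT chaperonin genes were all below 0 on the log2 fold change scale, with a median of -0.34. Of them 42.9% were lower, beside 16.6% of all tested genes. Of 7 tested, 3 passed the test: Cct7 (356 ± 9.36 with DMSO, 268 ± 36.8 with SAG, log2 fold change -0.41, limma adjusted p = 0.0221), Cct3 (285.5 ± 6.63 and 224 ± 34.7, -0.36, 0.0472) and Cct5 (319 ± 6.07 and 258 ± 25.5, -0.31, 0.0458). Cct2, Cct4, Cct6a and Cct8 had values from -0.39 (Cct6a) to -0.20 (Cct4), with limma adjusted p from 0.132 to 0.246. Tcp1, the remaining subunit of the ring, is not a member by its symbol, and it had 343 to 348 with DMSO and 287, 216 and 351 with SAG (log2 fold change -0.31, limma adjusted p = 0.162).

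Within each library the subunits of the ring lay close together. As percent of the DMSO mean, the 8 subunits with Tcp1 were at 71.6% (Cct6a) to 87.7% (Cct4) in SAG replicate 1, at 58.4% (Cct6a) to 74.2% (Cct4) in SAG replicate 2 and at 86.3% (Cct7) to 107% (Cct8) in SAG replicate 3. Medians were 78.6%, 65.4% and 99.8%, and the DMSO libraries ran from 97.0% to 104%. SAG replicate 3 was thus the highest SAG library for all 7 tested CCT members, as it was for 43 of the 74 tested members (58.1%) and for 40.7% of all tested genes. Without SAG replicate 3 all 7 were lower (limma adjusted p from 2.95e-07 for Cct6a to 0.00138 for Cct4), and so was Tcp1 (4.22e-05).

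The 3 CCT calls with all libraries were fragile. Cct7 lost its call without DMSO replicate 1, 2 or 3 (limma adjusted p = 0.0951, 0.0728 and 0.0984) and without SAG replicate 1 (0.0566). Cct3 and Cct5 lost theirs without each library other than SAG replicate 3 (0.107 to 0.158 for Cct3 and 0.0835 to 0.167 for Cct5) and with edgeR on whole reads (edgeR adjusted p = 0.0707 and 0.069). Cct3 and Cct7 lost theirs with length and GC trends removed (limma adjusted p = 0.122 and 0.0697), and limma without a trend called none of the 3 (0.0508 for Cct7 to 0.0918 for Cct5). With libraries scaled by their totals limma called no CCT gene, 1 (Cct7) was lower at an unadjusted p under 0.05, and all 7 stayed negative at a median of -0.20.

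**Figure D4:**
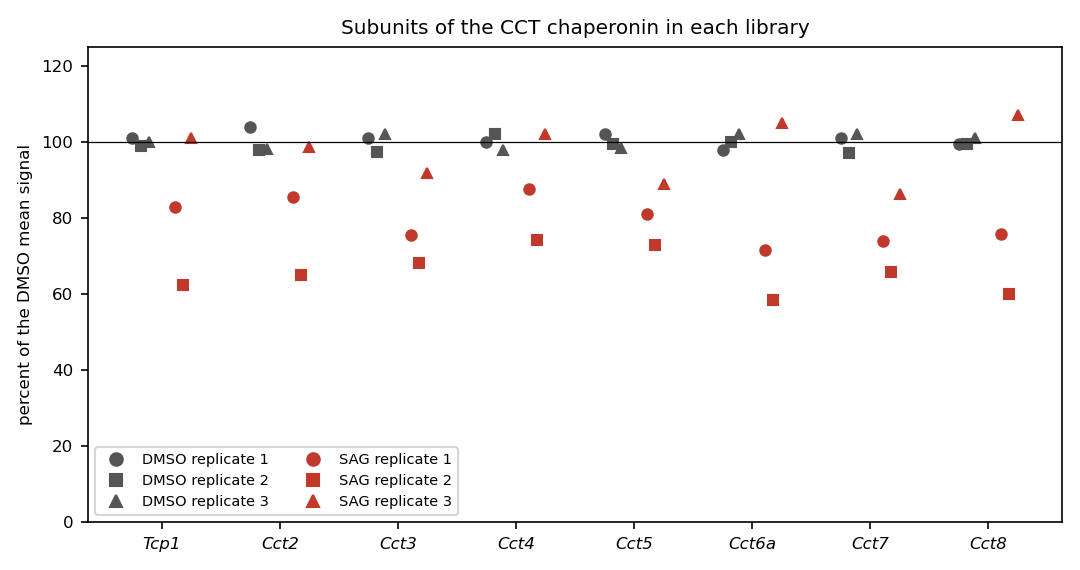
Signal of the 8 CCT ring subunits (Tcp1 included) in each library as percent of the DMSO mean (linear axis from 0); grey is DMSO, red is SAG, and marker shapes give the replicate. The subunits sit at 71.6% to 87.7% in SAG replicate 1 and 58.4% to 74.2% in SAG replicate 2, while in SAG replicate 3 they sit at 86.3% to 107%.

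Of 16 tested genes for prefoldin, phosducin-like and tubulin-folding proteins, which work beside CCT, 0 were higher and 4 lower (25.0%, beside 16.6% of all tested genes), with a median of -0.20. With libraries scaled by their totals 1 was higher and 3 were lower, with a median of -0.06. Pdcl3, a phosducin-like CCT cofactor, had 130 to 136 with DMSO and 70.9, 61.7 and 87.1 with SAG (log2 fold change -0.87, limma adjusted p = 0.00133). Pfdn1, a prefoldin subunit, went from 57.8 ± 6.24 to 32.4 ± 5.84 (-0.82, limma adjusted p = 0.00384), and Tbca, a tubulin cofactor, from 85.1 ± 5.38 to 52.9 ± 18.1 (-0.73, limma adjusted p = 0.0264). The call of Tbca was lost without any library other than SAG replicate 3, as without DMSO replicate 1 (limma adjusted p = 0.0992) or SAG replicate 2 (0.0533). The other lower gene, Pfdn2, falls outside the naming rule and is named after its value was seen (limma adjusted p = 0.0484, up to 0.203 with a library left out). At an unadjusted p under 0.05, 1 gene of the list was higher (Tbcc), and edgeR called 0 and DESeq2 1 as higher.

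Hspd1 and Hspe1, which encode Hsp60 and its lid Hsp10, lie head to head on chromosome 1, where their annotated exons overlap by 112 bases. Hspd1 had signals of 382, 364 and 379 with DMSO and 275, 199 and 305 with SAG, without overlap (log2 fold change -0.55, SE 0.15, limma adjusted p = 0.0205). That call was lost without DMSO replicate 1, 2 or 3 (limma adjusted p = 0.0824, 0.065 and 0.0795) and with libraries scaled by their totals (0.0509). Hspe1 had 113, 109 and 103 with DMSO and 98.3, 66.3 and 117 with SAG, and SAG replicate 3 lay above the DMSO range (log2 fold change -0.24, limma adjusted p = 0.336, and 0.00227 without SAG replicate 3). Both genes have processed copies in the genome: 42.1% and 22.8% of their 50-base words occur in other transcripts.

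The stretch between an inner RefSeq start of Hspd1 and the start of Hspe1 is printed because it holds at least 3 heat shock units in a row. Such a run stands before a start of 139 of 27025 genes (0.514%), among them the 3 members Hspd1, Hspe1 and Dnajb6. For Hspd1 it lies in the window of the inner start (chr1:55087933-55088182). The window of the outer start of Hspd1 (chr1:55088244-55088493) holds 0 pairs. The run was searched on both strands as GAANNTTCNNGAA or TTCNNGAANNTTC, and it contains the pair by construction. The same region is read here on the plus strand, towards Hspe1.
Hspe1, chr1:55088053-55088082, plus strand: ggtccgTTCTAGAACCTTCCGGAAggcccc

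By limma the 9 mitochondrial members had 0 higher and 2 lower (Hspd1 and Dnajc11, 22.2%). The 13 mitochondrial folding and quality control genes outside the module had 0 higher and 2 lower (15.4%). Over all tested genes 12.9% were higher and 16.6% lower. With libraries scaled by their totals limma called 0 of the 9 members lower. Hspd1 and Dnajc11 were then lower at an unadjusted p under 0.05. Both were lower in edgeR and DESeq2, which used their own scaling in place of the totals. The lower genes outside the module were the protease gene Yme1l1 (134 ± 3.95 with DMSO and 90.8 ± 14.0 with SAG, limma adjusted p = 0.00778) and Grpel1, the exchange factor of mitochondrial Hsp70 (72.7 ± 1.02 and 57.2 ± 1.96, limma adjusted p = 0.0255). Grpel1 lost its call without DMSO replicate 1, 2 or 3 (limma adjusted p = 0.117, 0.102 and 0.106). Timm44, which anchors mitochondrial Hsp70 at the import channel, had 46.0 ± 4.01 and 36.4 ± 1.91 (limma adjusted p = 0.0549, and 0.0228 without SAG replicate 3). At an unadjusted p under 0.05 none of either list was higher in limma, and edgeR and DESeq2 called 0 as higher, as they did for the 2 lists of the endoplasmic reticulum that follow.

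The 10 members of the endoplasmic reticulum had 0 higher and 1 lower (Dnajb14, 10.0%), beside 12.9% and 16.6% of all tested genes. Hspa5, the Hsp70 of that compartment, had 1144 to 1222 with DMSO and 1392, 1140 and 1745 with SAG (log2 fold change 0.24, limma adjusted p = 0.249). Dnajb9 had 22.3 to 26.3 with DMSO and 34.5, 23.2 and 31.5 with SAG (0.29, limma adjusted p = 0.196). Both passed the test as higher without SAG replicate 2 (limma adjusted p = 0.0453 and 0.0374). Of 16 folding genes of the compartment outside the module, with Hspa5, Dnajb9 and Sec63 among them, 0 were higher and 3 lower (18.8%). The lower genes were Sec63, Canx (calnexin, 719 ± 5.66 with DMSO and 498 ± 101 with SAG, limma adjusted p = 0.0152) and Pdia4 (a disulfide isomerase, 289 ± 11.3 and 213 ± 13.9, limma adjusted p = 0.0077). The call of Canx was lost without DMSO replicate 1, 2 or 3 (0.0646, 0.0591 and 0.0664) or SAG replicate 1 (0.0516), and that of Pdia4 without DMSO replicate 1 or 2 (0.0517 and 0.0526).

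The factors that control the inducible members did not pass the limma test at the transcript level, nor an unadjusted p under 0.05, and edgeR and DESeq2 called 0 of the 3. Hsf1 had 31.6, 32.3 and 32.0 with DMSO and 36.1, 42.9 and 26.0 with SAG, so SAG replicates 1 and 2 were above and SAG replicate 3 below the DMSO range (log2 fold change 0.10, limma adjusted p = 0.694, and 0.0294 as higher without SAG replicate 3). Hsf2 and the HSF1-binding gene Hsbp1 had log2 fold changes of 0.09 and -0.18 (limma adjusted p = 0.676 and 0.202), and Hsbp1 was lower without SAG replicate 3 (0.039).

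Of 18 other genes known as HSF1 targets, 1 was higher (5.56%) and 2 were lower (11.1%), beside 12.9% and 16.6% of all tested genes. Dedd2 went from 3.29 ± 0.210 to 6.77 ± 1.63 (log2 fold change 0.84, limma adjusted p = 0.0136), a call lost without DMSO replicate 3 (0.0605). Stip1, with the values given above, was among the lower genes.

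By level per kilobase of exon, summed over a class, Hsp90 led with 1134 ± 14.8 with DMSO and 884 ± 112 with SAG, and Hsp90ab1 made up 63.6% of it with DMSO. CCT followed with 594 ± 6.29 and 482 ± 95.6, then Hsp70 and Hsp110 with 499 ± 4.42 and 422 ± 32.6, of which Hspa8 made up 48.0%. In the other classes the summed level ran from 216 to 298 with DMSO and from 162 to 244 with SAG. The ranges of the groups overlapped for the small heat shock proteins and, with libraries scaled by their totals, also for CCT, Hsp70 and Hsp110, and DnaJ A and B.

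The calls with the least dependence on the analysis were those of 9 members, which kept them in every alternative fit that tested them: Hspa1a, Hspa1b, Hspa12a and Hspb2 higher, and Hspa4, Hsp90ab1, Dnajb14, Dnajc8 and Bag2 lower. Hspb2 was tested in 17 of the 18. The other 12 called members lost their call in at least 1. In GRCm38 Hspa12a lies on chromosome 19 at 58795750 to 58943654, Hspb2 on chromosome 9 at 50751078 to 50752354, Hspa4 on chromosome 11 at 53259814 to 53300457, Hsp90ab1 on chromosome 17 at 45567775 to 45573271 and Bag2 on chromosome 1 at 33745484 to 33757795, all on the minus strand. Dnajb14 lies on chromosome 3 at 137867675 to 137916557 and Dnajc8 on chromosome 4 at 132535550 to 132553742, both on the plus strand. All 9 are annotated as protein-coding. On the whole reads recovered from the signal, edgeR gave 6 higher and 11 lower members, beside 15.0% of genes higher and 15.0% lower (29.9% called), and DESeq2 gave 6 and 12, beside 17.0% and 15.7% (32.7%). Removing trends of gene length and GC gave 4 and 15 members, beside 13.9% and 15.9% (29.8%).

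Scaling each library by its total, in place of the deposited scaling, moved the median of all genes by 0.13, from -0.03 to 0.10. It left 6 members higher and 6 lower, beside 19.7% and 10.0% of all genes (29.8% called), and 66.3% of all calls were then higher, against 43.8%. Scaling by the total adds nearly the same amount to the log2 fold change of each gene. The distance of a set from the median of all genes could therefore hardly move. It was -0.17 for the members under the deposited scaling and -0.16 under the total scaling, and -0.31 and -0.30 for the CCT genes. The agreement between the scalings thus tests nothing.

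The 11 members under the filter were Cct6b, Cct8l1, Hspb3, Hspb9, Dnajb7, Dnajb8, Dnajb13, Dnajc5b, Dnajc5g, Dnajc6 and Dnajc22. None had more than 14 reads in a library, and Hspb3, Dnajb8, Dnajc5b and Dnajc5g had 0 reads in all 6. A count of 0 allows up to 3 reads, a signal of up to 0.124 to 0.169 in the DMSO libraries and 0.318 to 0.385 in the SAG libraries.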

How the data were processed

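RNA-seq libraries (NEBNext Ultra II Directional) were prepared from RNA extracted with the RNeasy Micro kit, per the labels' protocols. Reads were trimmed, aligned, counted and scaled on GRCm38 (mm10) with tools that the submitters' processing notes list as edgeR 2.2.1, featureCounts 2.0.0, STAR and Trim Galore 0.6.4, without their settings. Annotation, strand setting and filters are not given in the sources used here. Scaled CPM is the unit of the signal that the authors deposited: the column sums run from 932712 to 1055620, and 100% of values are whole multiples of the value of 1 read (tolerance 0.01), which gave back whole reads. The 92 spike-in rows were left out.

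Columns were matched to samples by treatment and replicate number. Each gene's log2(signal + 1) was tested across the 12550 genes whose mean signal was 1 or more with limma 3.58.1 (R 4.3.3, eBayes with trend, group as the only term, two-sided). A call required a Benjamini-Hochberg adjusted p below 0.05. Fold changes on this scale understate those of low genes, and plain folds are ratios of mean signals. Floors for a count of 0 cover counting error only, as PCR copies are not independent molecules. The fit was tested on simulated counts.

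Coordinates, exon lengths and shared 50-base words came from GENCODE M21 (GRCm38), which matched 85 of 85 members, and promoters from RefSeq (GRCm38.p6), which held 69 of 85. Protein sequences were not used here. Values of some genes outside the module are not reported here. Classes, lists, tests and named genes were chosen with earlier results of these data known, and the same holds for the members, so no list is independent evidence. Named by rule were, in each class, up to 6 members with the smallest p, all CCT, Hsp90, Hsp60, Hsp10 and BAG members, all heat-inducible members, up to 3 genes of each other list, and Hsf1, Tcp1, Hspa5 and Dnajb9. Alternatives were a pseudocount of 0.5 or 5, no filter or a mean of at least 5, scaling by library total, limma with robust eBayes or without trend, a replicate block, edgeR 4.0.16 and DESeq2 1.42.0 on recovered reads, DMSO reads thinned to 8338764, removed length and GC trends, each library left out, and an adjusted p under 0.01.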

Additional observations from a re-analysis of the deposited data

Results flagged for a closer look

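Reads of the synthetic spike-in RNAs, which enter no comparison, were found in the SAG libraries and not in the DMSO libraries: 111 reads in SAG replicate 1, 54 in SAG replicate 2 and 1205 in SAG replicate 3, against 0 in each DMSO library. They made up at most 0.0157% of a library. No source used here says whether spike-ins were added, and their part in the values of the chaperone genes was not tested.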

How the results depend on the processing

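Over all genes, the 1625 higher and 2084 lower calls became 2477 and 1259 with libraries scaled by their totals and 794 and 1043 at an adjusted p under 0.01. With each library left out they ran from 901 to 2463 and from 1086 to 3373. Members called lower numbered 6 with total scaling, 5 at an adjusted p under 0.01 and 5 to 36 with a library left out, and members called higher 4 to 7. Class medians moved with total scaling to -0.10 (Hsp70 and Hsp110), -0.03 (small heat shock proteins), -0.02 (DnaJ A and B), 0.02 (DnaJ C), -0.10 (BAG), -0.08 (Hsp90), -0.26 (Hsp60 and Hsp10) and -0.20 (CCT), and with length and GC trends removed to -0.10 (Hsp70 and Hsp110), -0.08 (Hsp90) and 0.01 (DnaJ C). With a library left out the medians ran from -0.26 to -0.16 (Hsp70 and Hsp110), -0.41 to -0.05 (Hsp90), -0.21 to -0.11 (small heat shock proteins), -0.55 to -0.19 (Hsp60 and Hsp10), -0.21 to -0.11 (DnaJ A and B), -0.16 to -0.06 (DnaJ C), -0.48 to -0.20 (CCT) and -0.33 to -0.15 (BAG). The causes were not tested. Values close to 0 changed sign: Hsp90aa1 and Dnajb1 were at 0.00 with total scaling, Bag5 from -0.02 (without SAG replicate 3) to 0.22 (without SAG replicate 2), Hsf1 from -0.06 (without SAG replicate 2) to 0.29 (without SAG replicate 3), and Bag6 at -0.01 with thinned DMSO reads, -0.21 with length and GC trends removed and, with a library left out, from -0.10 (without SAG replicate 2) to 0.14 (without SAG replicate 3).

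Whether replicate numbers pair the samples is not stated. Same-numbered deviations from the group means correlated at -0.0231, 0.0332 and -0.000173, and the other combinations at -0.0327 to 0.0371. With 3 libraries per group such values cannot exclude a shared litter or culture. With the replicate number as a block, 1549 genes were higher and 1976 lower, and among members 5 and 14. Under the block Cct3 (limma adjusted p = 0.0507), Cct5 (0.0795), Dnajc7 (0.0905) and Dnajb2 (0.0744) lost their calls, and Bag1 (0.0438) and Dnajb4 (0.0466) gained one. The SAG libraries, with about the depth of 8338764 reads on average, limit the low members most: Hspb2 rests on 44 to 56 reads a library.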
